A study of Mus musculus with 10 samples.

Results

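Filamins, Xin proteins and sorbin adaptors are large scaffold proteins that hold actin filaments at the Z-discs and cell contacts of heart muscle. Described here are 8 genes: Sorbs2, Sorbs3, Xirp1, Xirp2, Flna and Flnc of these families, and Fblim1 and Synpo2, whose proteins work with filamin. All 8 were found by symbol among the 23337 genes of the deposited count table. The set was named by gene family and was selected on knowledge of the same knockout and heterozygote read counts, with Sorbs2 among the clearest rises. Differences between knockout and heterozygote in these 8 genes are therefore given as a description, without p-values. Poly(A) RNA was measured by sequencing in sorted mouse cardiomyocytes, 5 samples per genotype, at postnatal day 14. The knockout group is labelled Actn2-FF, with both alleles of Actn2 floxed, and the heterozygote group Actn2-F+, with 1 floxed and 1 normal allele. Both groups received the AAV9-cTNT-Cre virus on postnatal day 1, at 3.6e+08 vector genomes per gram. Cre was driven by a cardiac troponin T promoter, so cells outside the heart muscle lineage are not the intended target, and the heterozygotes are controls that carry a floxed allele and the virus too. No group without virus or with 2 intact alleles is among the 10 samples.

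Filamins are rod-shaped proteins that crosslink actin filaments and tie them to membrane receptors. Filamin C (Flnc) is the muscle form and sits at the Z-disc and the intercalated disc, where heart muscle cells join end to end, while filamin A (Flna) is the broadly expressed form. The Xin proteins (Xirp1 and Xirp2) bind and stabilise actin through short repeats and gather at the intercalated disc, where they meet filamin C and the cadherin complex. Sorbin adaptors (Sorbs2, also called ArgBP2, and Sorbs3, vinexin) carry SH3 domains that bind vinculin and other adhesion proteins. Migfilin (Fblim1) links filamin to kindlin at cell adhesions, and myopodin (Synpo2) is a Z-disc protein that works with filamin and Bag3 in the chaperone-assisted removal of damaged filamin. Alpha-actinin-2, the product of Actn2, crosslinks actin at the same Z-disc.

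Total counts ran from 8086656 to 25237696 per sample. Each member had at least 121 counts in every sample, and all 8 passed the filter on low counts. Actn2, the targeted gene, was at 2677 to 3474 CPM (the read count normalised to library size, here scaled by TMM) in heterozygotes and 1145 to 1286 CPM in knockouts, without overlap (log2 fold change -1.39, SE 0.0910, edgeR adjusted p 3.48e-07). Heterozygote 3 stood apart in 8 interferon-response genes, with a summed 158.9 CPM against 7.90 to 17.7 CPM in the other 9 samples. Without heterozygote 3 the same 6 members described next passed the threshold. Across 11870 tested genes, 18.9% passed an adjusted p of 0.05 by edgeR (quasi-likelihood). Knockout values were called higher in 10.2% and lower in 8.64%, and the groups did not overlap in 14.7%. The calls were 54.3% higher with TMM and 68.9% higher when scaled by library totals alone.

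In the knockout, 5 of the 8 genes were higher past that threshold (Xirp2, Sorbs2, Sorbs3, Flnc and Xirp1), 1 was lower (Fblim1), and 2 did not pass (Flna and Synpo2). The 6 genes past the threshold were the same under 10 other settings and in the 10 fits that left out 1 animal, and Synpo2 joined them in 3 of these. In these 6 genes the groups did not overlap. The median log2 fold change was 0.98 over the 8 genes and 0.00 over all tested genes. Because the members were chosen from this contrast, these counts are no test of the group of genes.

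**Figure D1:**
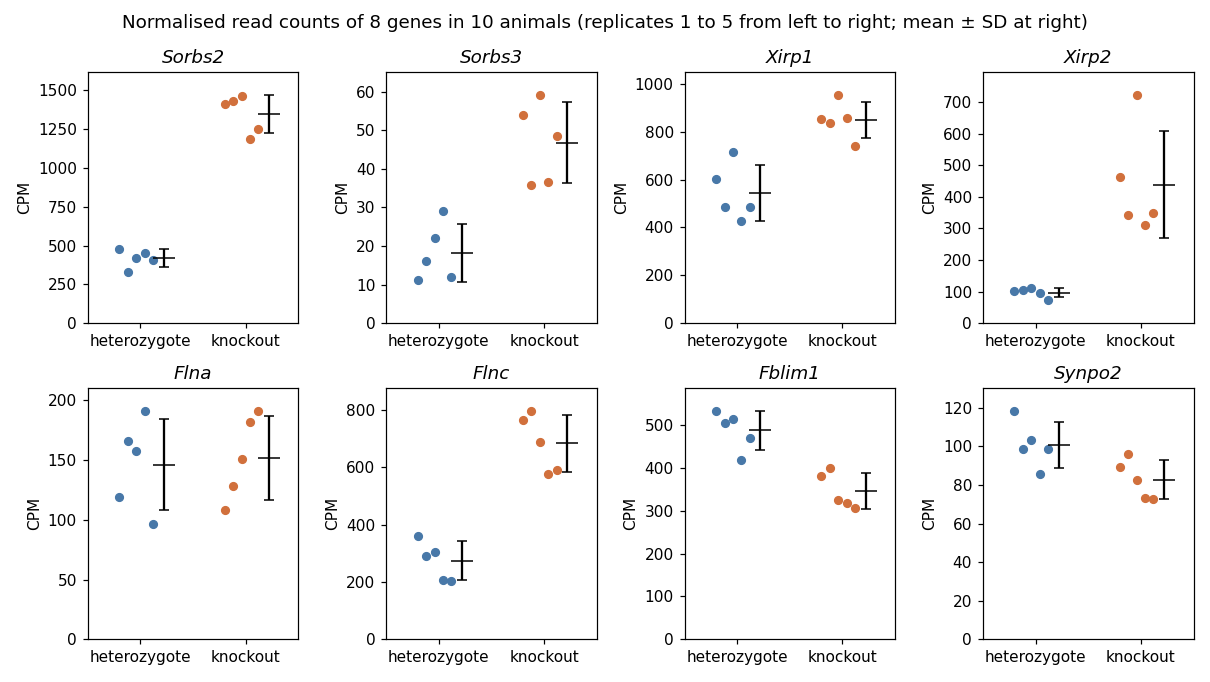
Normalised read counts (CPM, linear axes from 0) of the 8 genes in each of 5 heterozygotes and 5 knockouts, with the mean ± SD beside each group. The groups are apart for Sorbs2, Sorbs3, Xirp1, Xirp2, Flnc and Fblim1 and overlap for Flna and Synpo2.

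Sorbs2 (chromosome 8, 45507788 to 45827906, plus strand, build mm10 here and below) was among the most abundant of the set. Heterozygotes 1 to 5 held 479, 329, 419, 454 and 405 CPM. In knockouts 1 to 5 it was 1409, 1432, 1465, 1186 and 1250 CPM. Every knockout lay above every heterozygote, and the 5 knockouts lay close to each other. The means were 417 ± 57.5 and 1349 ± 123 CPM (SD, n = 5 each), a 3.23-fold difference (log2 fold change 1.69, SE 0.110). Of all tested genes, 99.0% had a lower log2 fold change. The value ran from 1.62 to 1.75 when single animals were left out. An exon stretch of 84 of its 6097 bases is shared with D330022K07Rik on the opposite strand, and the counter's defaults assign reads there to neither gene.

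Sorbs3, the gene of vinexin (chromosome 14, 70180468 to 70207637, minus strand), had the lowest read counts of the set. It stood at 11.3, 16.2, 22, 29.1 and 11.9 CPM in heterozygotes 1 to 5, against 53.9, 35.7, 59.2, 36.5 and 48.4 CPM in knockouts 1 to 5. The nearest samples were heterozygote 4 and knockout 2, and no sample crossed over. This was a 2.61-fold difference (log2 fold change 1.38, SE 0.242), with a range of 1.24 to 1.63 over the fits without 1 animal. Its spread among animals was wide for its level, with 18.1 ± 7.48 CPM in the heterozygotes (SD, n = 5).

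The genes whose profile over the 10 samples was closest to that of Sorbs2 were Myh10, Ddc, Prkg1, 1500017E21Rik and Clic5. Likeness was the root-mean-square difference in log2 CPM, each gene centred on its heterozygote mean, among 8361 non-member genes at a mean of at least 10 CPM. The difference was 0.139 for Myh10, which encodes the heavy chain of non-muscle myosin IIB, and 0.196 for Clic5, the last of the 5. Myh10 went from a mean of 32.2 CPM in heterozygotes to 97.0 CPM in knockouts. Prkg1, the gene of a cGMP-dependent protein kinase, went from 17.6 to 60.1 CPM. All 5 log2 fold changes lay between 1.54 and 1.76, beside 1.69 for Sorbs2. Likeness was taken over both groups, so near-equal fold changes follow from how the 5 genes were picked and are no separate result.

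Xirp2 (chromosome 2, 67446002 to 67526606, plus strand) encodes the longer Xin protein, and its annotated exons add up to 11971 bases. It showed the largest fold difference among the 8 genes. Heterozygotes 1 to 5 held 101, 104, 113, 94.0 and 72.0 CPM, and knockouts 1 to 5 held 464, 343, 724, 312 and 349 CPM. Knockout 3 was far above the other 4 knockouts, and even the lowest knockout was well above the highest heterozygote. The log2 fold change was 2.18 (SE 0.214), a 4.53-fold difference, and without knockout 3 it was 1.92.

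Xirp1 (chromosome 9, 120013755 to 120023598, minus strand), the gene of Xin itself, moved far less on the log scale. It was at 602, 487, 716, 425 and 484 CPM in heterozygotes 1 to 5, and at 851, 835, 954, 857 and 742 CPM in knockouts 1 to 5. Heterozygote 3 and knockout 5 nearly met, at 716 and 742 CPM. The difference was 1.56-fold (log2 fold change 0.64, SE 0.130), with a range of 0.57 to 0.76 without single animals. Knockout 3 was highest in both Xin genes and in both sorbin genes of the set.

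Flnc (chromosome 6, 29433153 to 29461888, plus strand), the muscle filamin gene, was at 361, 293, 305, 208 and 204 CPM in heterozygotes 1 to 5. Knockouts 1 to 5 held 765, 796, 689, 577 and 592 CPM. The lowest knockout exceeded the highest heterozygote. Flnc was thus 2.49-fold higher (log2 fold change 1.32, SE 0.159), with a range of 1.23 to 1.44 without single animals.

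Flna (chromosome X, 74223461 to 74246534, minus strand), the gene of the broadly expressed filamin, did not part the groups. Its values were 119, 166, 158, 191 and 96.2 CPM in heterozygotes 1 to 5, and 108, 128, 151, 181 and 191 CPM in knockouts 1 to 5. Both groups covered nearly the same range. The log2 fold change was 0.06 (SE 0.188), and it was negative when heterozygote 1 or 5 or knockout 4 or 5 was left out, and with an offset for exon length. Heterozygote 4 held the most Flna of its group and also the most endothelial marker RNA, a summed 1086 CPM over 8 markers against 615 to 758 CPM in the other heterozygotes. Knockout 5 held the most Flna of its group and the least endothelial marker RNA, 388 CPM. What part other cells have in the Flna counts was not tested, and in bulk samples fewer cells of a type and less RNA per cell cannot be told apart.

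Fblim1 (chromosome 4, 141576062 to 141606052, minus strand), the gene of migfilin, was the only member lower past the threshold. Heterozygotes 1 to 5 were at 532, 504, 513, 417 and 468 CPM, and knockouts 1 to 5 at 380, 399, 325, 317 and 306 CPM. Heterozygote 4 and knockout 2 lay nearest to each other, and the groups did not overlap. The log2 fold change was -0.50 (SE 0.102), or 0.709 of the heterozygote level, with a range of -0.55 to -0.45 without single animals.

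Synpo2 (chromosome 3, 123076519 to 123236149, minus strand), the gene of myopodin, was at 118, 98.5, 103, 85.4 and 98.5 CPM in heterozygotes 1 to 5. It was at 89.3, 95.8, 82.4, 73.2 and 72.9 CPM in knockouts 1 to 5. The groups overlapped through heterozygote 4 and knockouts 1 and 2. The log2 fold change was -0.29 (SE 0.108), or 0.820 of the heterozygote level, and did not pass. It passed without heterozygote 4, with limma's voom, and with the exon length offset, at -0.34, -0.32 and -0.47.

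Long genes were higher in the knockout more often than short ones. Among the 2275 tested genes with over 5000 bases of exon, the median log2 fold change was 0.16, with 19.9% called higher and 2.68% called lower. Among the 3321 genes of up to 2000 bases it was -0.11, with 4.67% called higher and 14.9% called lower. Of the 8 genes, 6 have over 5000 bases of exon, and Sorbs3 and Fblim1 are shorter. With an offset for exon length, chosen after seeing the data, the log2 fold changes were 1.96 for Xirp2, 1.55 for Sorbs2, 1.39 for Sorbs3, 1.11 for Flnc, 0.50 for Xirp1, -0.16 for Flna, -0.47 for Synpo2 and -0.49 for Fblim1. The same 5 genes were then higher past the threshold, and Synpo2 was lower beside Fblim1.

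Levels of different genes were compared as CPM per kilobase of annotated exon. In heterozygotes Fblim1 was highest, at 154 ± 14.3 (SD, n = 5), and stood apart from the rest. Xirp1 followed at 93.0 ± 19.9 and Sorbs2 at 68.4 ± 9.43, and the ranges of these neighbours overlapped. Flnc at 29.9 ± 7.34, Flna at 17.5 ± 4.55 and Synpo2 at 14.2 ± 1.67 formed the middle, each overlapping the next. Xirp2 at 8.09 ± 1.29 and Sorbs3 at 6.22 ± 2.57 were lowest and overlapped each other.

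The order in knockouts was different. Sorbs2 was highest, at 221 ± 20.1 CPM per kilobase (SD, n = 5), ahead of Xirp1 at 145 ± 12.9 and Fblim1 at 109 ± 13. Flnc at 74.6 ± 10.8 and Xirp2 at 36.6 ± 14.2 came next. The ranges of these 5 neighbours did not overlap, nor did those of Xirp2 and Flna. Flna at 18.2 ± 4.18, Sorbs3 at 16 ± 3.59 and Synpo2 at 11.6 ± 1.41 were lowest, with overlap between neighbours. Synpo2, which stood above Xirp2 and Sorbs3 in heterozygotes, was last in knockouts.

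**Figure D2:**
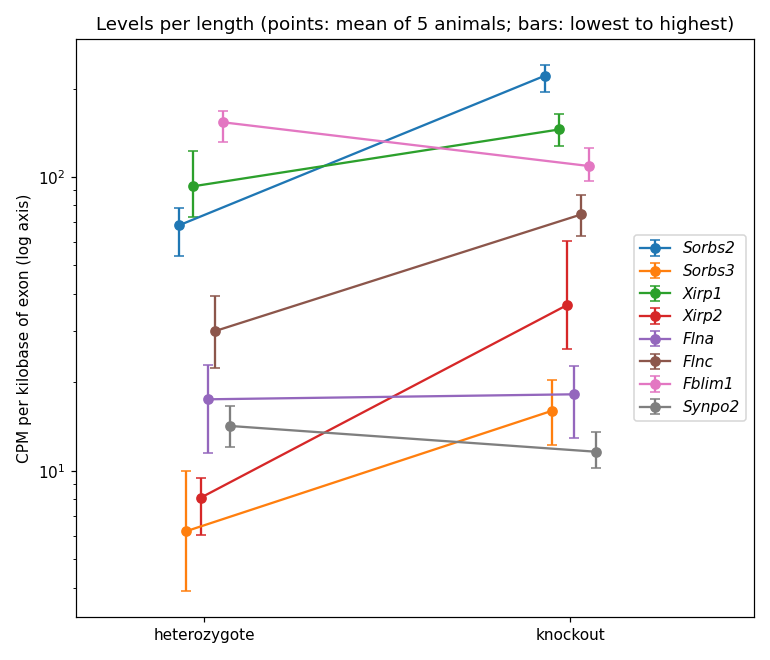
Mean level per length (CPM per kilobase of exon, log axis) of the 8 genes in heterozygotes and knockouts, with bars from the lowest to the highest of 5 animals. Sorbs2 goes from 68.4, below Fblim1 and Xirp1, to the top at 221, and Fblim1 from the top at 154 to 109.

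Among related genes, the share of each was taken from counts per exon length in each animal. Of Flnc and Flna together, Flnc made up 62.9% ± 8.56 in heterozygotes and 80.1% ± 5.88 in knockouts (SD, n = 5 each), and their summed level was 1.96-fold higher in knockouts. Flnc shares were 49.8% to 73.4% in heterozygotes and 73.9% to 86.6% in knockouts, so the groups nearly met without overlap. Xirp2 made up 8.13% ± 1.37 of the Xin genes in heterozygotes and 19.7% ± 4.65 in knockouts, with knockout 3 highest at 27.0%. Xirp1 was still the larger part in every animal, at 73.0% or more.

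Of Sorbs2 and Sorbs3 together, Sorbs2 made up 91.7% ± 2.97 in heterozygotes and 93.3% ± 1.20 in knockouts (SD, n = 5 each), with overlapping ranges of 88.2% to 95.3% and 92.2% to 95.0%. Both genes were higher in the knockout, and their summed level was 3.18-fold higher. Among the synaptopodins, Synpo2 made up 16.6% ± 1.26 in heterozygotes and 6.64% ± 0.71 in knockouts, while Synpo2l made up 72.5% and 81.2%. The Synpo2 shares did not overlap, although its CPM did, and 2 of its relatives were higher in the knockout. These shares come from the contrast that chose the genes and were not tested.

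**Figure D3:**
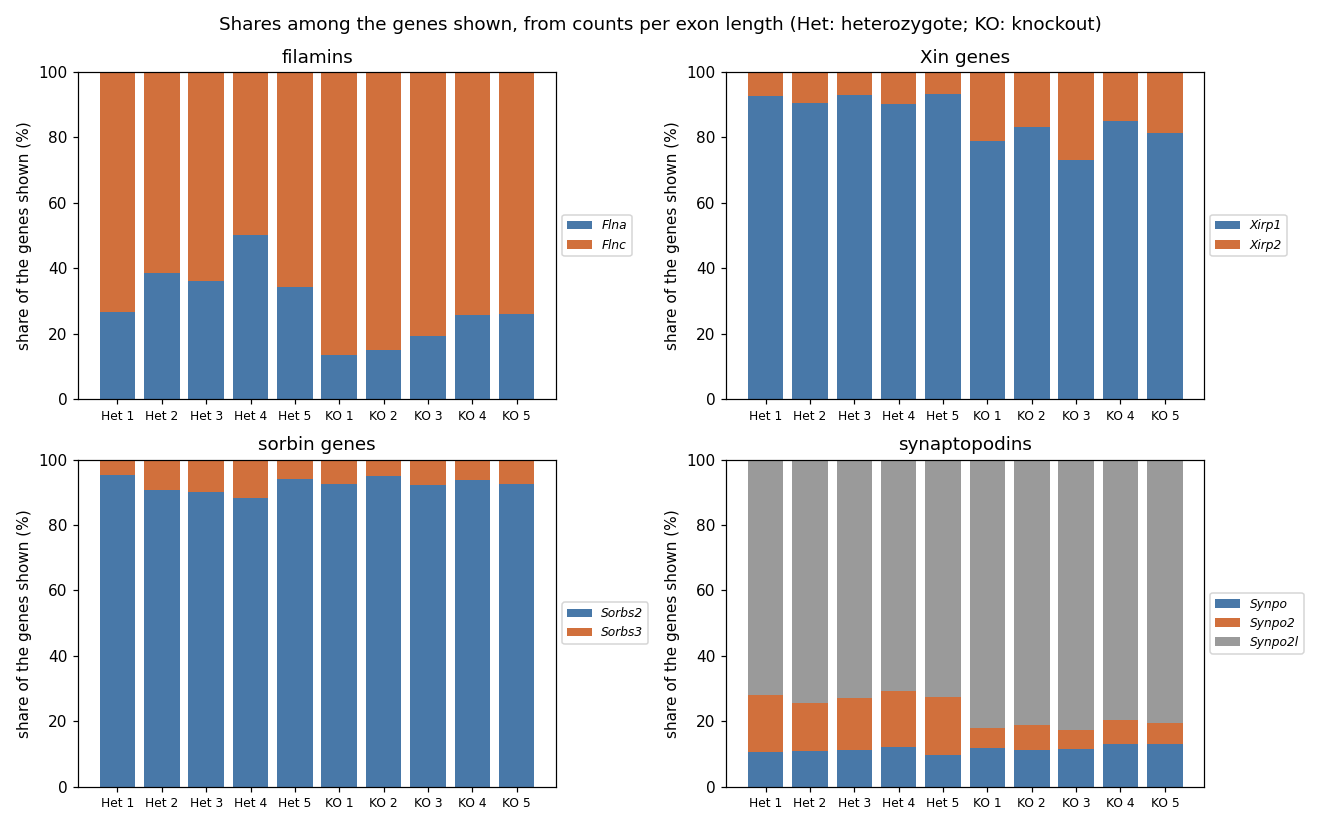
Share of each gene among the genes of its panel (percent, from counts per exon length) in each heterozygote (Het) and knockout (KO). Flnc and Xirp2 take a larger share in every knockout than in any heterozygote and Synpo2 a smaller one, while the shares of Sorbs2 overlap.

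Promoter sequences of RefSeq (build GRCm38.p6), 250 bases before to 50 after each start, were taken for 6 of the 8 genes, in 10 windows. Among the relatives they were taken for Synpo2l, and windows of Synpo are not reported here. Sorbs3 and Xirp1 had no entry. Both strands were searched for the MEF2 site, the CArG box bound by SRF, the MCAT element CATTCC bound by TEAD factors, and TATAAA. The MEF2 site was found in 3.19% of all 32851 windows, the CArG box in 1.63%, CATTCC in 14.7% and TATAAA in 13.6%. Among the members, Xirp2 and Synpo2 held a MEF2 match, 3 genes (Flna, Flnc and Fblim1) held CATTCC, and none held a CArG box. These are counts of genes, some with several windows, while the shares above are per window. The 3 windows of Sorbs2 held none of the 4. Synpo2l held a MEF2 match in each of its 2 windows.

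A window each of Xirp2, Synpo2 and Synpo2l is shown because these 3 genes share a MEF2 match and differ in their values. Xirp2 and Synpo2l were higher in the knockout, and Synpo2 was lower without passing. They were chosen after the matches were seen. Each sequence is the 250 bases before the start, 5′ to 3′ on the gene's strand, with the MEF2 match in capitals. The regions are chr2:67445752-67446001 (plus strand), chr3:123236150-123236399 (minus strand) and chr14:20668355-20668604 (minus strand).
Xirp2: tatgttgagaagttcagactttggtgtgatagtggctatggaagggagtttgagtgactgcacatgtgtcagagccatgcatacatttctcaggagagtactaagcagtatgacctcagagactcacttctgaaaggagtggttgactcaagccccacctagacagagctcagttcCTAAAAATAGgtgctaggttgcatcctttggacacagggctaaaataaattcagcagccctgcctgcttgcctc
Synpo2: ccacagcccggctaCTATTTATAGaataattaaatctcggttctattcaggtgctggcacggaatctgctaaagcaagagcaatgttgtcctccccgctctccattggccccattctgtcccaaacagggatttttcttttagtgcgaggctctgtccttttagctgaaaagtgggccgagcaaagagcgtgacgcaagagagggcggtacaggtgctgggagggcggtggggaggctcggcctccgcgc
Synpo2l: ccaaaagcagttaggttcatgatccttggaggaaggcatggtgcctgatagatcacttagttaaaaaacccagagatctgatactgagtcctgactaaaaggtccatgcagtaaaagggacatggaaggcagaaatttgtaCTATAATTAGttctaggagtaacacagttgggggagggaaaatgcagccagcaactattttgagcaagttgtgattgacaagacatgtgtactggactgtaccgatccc
The match lies at -74 to -65 in Xirp2, -236 to -227 in Synpo2 and -109 to -100 in Synpo2l, counted from the start. In Synpo2 it overlaps a TATAAA match at -233 to -228. The other window of Synpo2l, not shown, holds its match at -144 to -135. These are matches of letters, and whether a factor binds there was not measured.

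The relatives Synpo and Synpo2l are not among the 8 genes, though the list was drawn up with earlier results known, and their differences were tested in the fit over all genes. Both relatives were higher in the knockout, beside 10.2% of all tested genes called higher. Synpo2l, which encodes the heart-enriched synaptopodin CHAP, rose from 244 ± 35.4 to 562 ± 90.5 CPM (SD, n = 5 each; log2 fold change 1.20, SE 0.131, edgeR adjusted p 2.66e-05). Synpo, the gene of synaptopodin, rose from 66.6 ± 9.28 to 152 ± 15.3 CPM, a log2 fold change of 1.19 ± 0.113 (SE; adjusted p 9.29e-06 by edgeR). In both genes the groups did not overlap and the call held in all 10 fits without 1 animal. Synpo2, their relative among the members, was at -0.29 in the same fit.

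Known partners of these proteins were taken from lists of binding proteins and pathway genes, drawn up with earlier results of these data known. Together with the relatives they numbered 44, of which 40 were tested. Of these, 13 were higher, 1 was lower and 26 did not pass, beside 10.2% called higher and 8.64% lower over all genes. Their median log2 fold change was 0.21 beside 0.00 over all genes. The other 4 (Myoz1, Myoz3, Fam101a and Igfn1) were below the filter. With endothelial markers as a covariate, 7 of the 14 calls were kept, all higher, while 1136 of all genes were called in place of 2241. The summed endothelial markers were 615 to 1086 CPM in heterozygotes and 388 to 688 CPM in knockouts, so the covariate is partly confounded with genotype. In each of the 14 genes the SE was larger with the covariate. The log2 fold change moved little in some (0.46 to 0.45 for Cdh2) and more in others (0.51 to 0.27 for Filip1). A lost call alone therefore does not show a smaller difference. Of all tested genes with over 5000 bases of exon, 19.9% were called higher, and several called partners are that long. With the exon length offset 14 partner genes were called, all higher, and 13 of them were also called without it. The log2 fold change went from 1.19 to 1.00 for Synpo, 1.00 to 0.79 for Tln1, 0.75 to 0.57 for Tjp1 and 0.65 to 0.50 for Cblb. It went from 0.41 to 0.46 for the shorter Sqstm1.

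**Figure D4:**
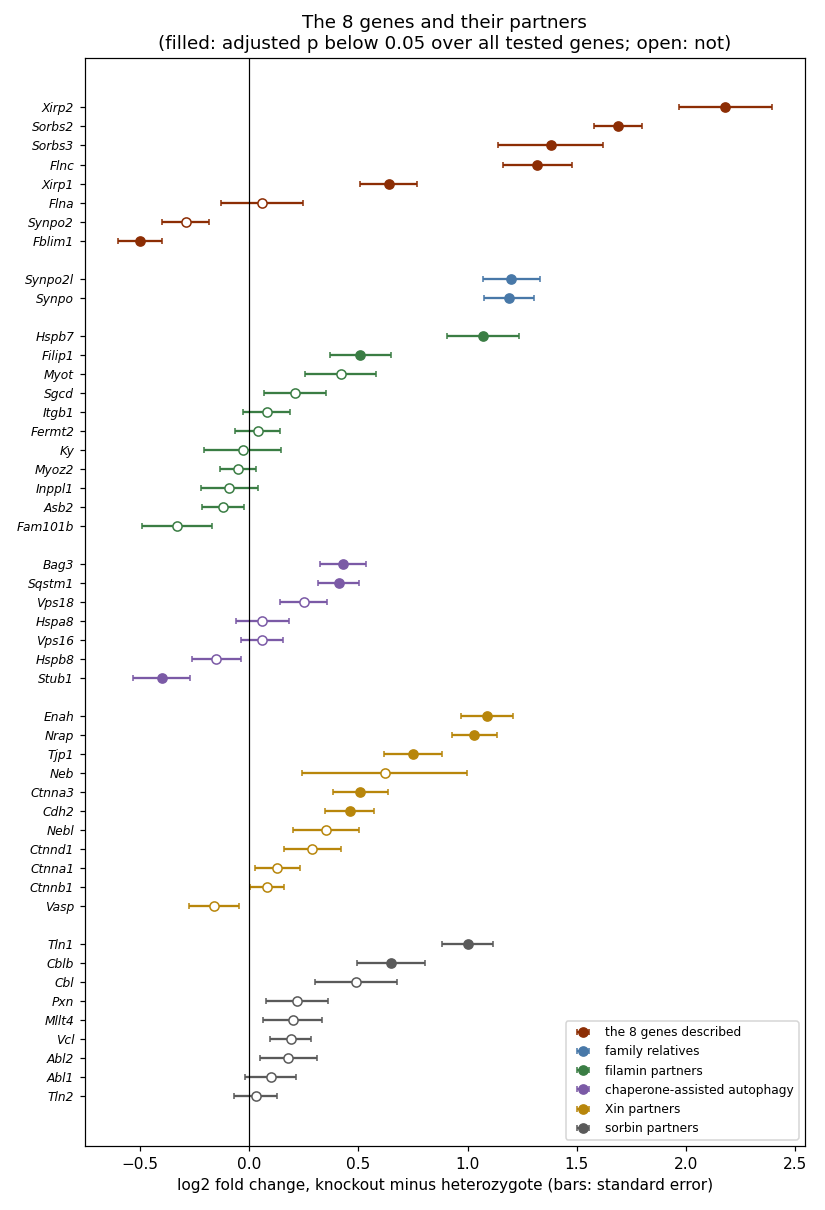
Log2 fold change (knockout minus heterozygote, with its standard error) of the 8 genes and of the 40 tested relatives and partners, grouped by list. Filled points passed an adjusted p of 0.05 over all tested genes. Points right of 0 are higher in the knockout.

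Among 11 tested filamin partners, 2 were higher, none lower and 9 did not pass, a share near the 18.9% called over all tested genes. Hspb7, a small heat-shock protein that binds filamin C, rose from 2124 ± 380 to 4444 ± 1080 CPM (SD, n = 5 each; log2 fold change 1.07, SE 0.164, edgeR adjusted p 4.79e-04). Filip1, the other gene of the list to rise, which encodes a filamin-interacting protein, had a log2 fold change of 0.51 (edgeR adjusted p 0.0204). With endothelial markers as a covariate it was 0.27 (SE 0.178) and did not pass. Other binding proteins did not pass, among them Myoz2, the gene of the Z-disc protein calsarcin-1, at 962 ± 79.2 and 929 ± 53.3 CPM, and Asb2, which directs filamins to the proteasome, at 866 ± 118 and 795 ± 17.3 CPM.

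In the chaperone-assisted pathway that clears filamin, 2 of 7 genes were higher, 1 was lower and 4 did not pass. Over all tested genes, 10.2% were called higher and 8.64% lower. Bag3, the co-chaperone at its core, rose from 220 ± 28.3 to 296 ± 28.4 CPM (SD, n = 5 each; log2 fold change 0.43, SE 0.104, edgeR adjusted p 0.00987). Sqstm1, the autophagy receptor p62, rose from 399 ± 41.4 to 530 ± 44.1 CPM, a log2 fold change of 0.41 ± 0.0943 (SE; adjusted p 0.00758 by edgeR). With endothelial markers as a covariate the log2 fold changes were 0.39 for Bag3 (SE 0.148) and 0.32 for Sqstm1 (SE 0.128), and neither passed. Stub1, the ubiquitin ligase of the pathway, was lower at 64.8 ± 5.67 against 85.8 ± 18.2 CPM, a log2 fold change of -0.40 ± 0.129 (SE; adjusted p 0.0415 by edgeR). Its call held in only 2 of the 10 fits without 1 animal, and 41.0% of its exon bases are shared with Jmjd8 on the opposite strand, so its counts are uncertain.

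Of 11 partners of the Xin proteins at the intercalated disc, 5 were higher, none lower and 6 did not pass. The shares over all tested genes were 10.2% called higher and 8.64% lower. Enah, which encodes the actin regulator Mena, rose from 20.5 ± 1.55 to 43.7 ± 6.88 CPM (SD, n = 5 each; log2 fold change 1.09, SE 0.119, edgeR adjusted p 2.71e-05). Nrap, a nebulin-related scaffold for growing myofibrils, rose from 450 ± 53.3 to 921 ± 90.2 CPM, a log2 fold change of 1.03 ± 0.103 (SE; adjusted p 1.24e-05 by edgeR). Tjp1, the gene of the junction protein ZO-1, rose from 84.2 ± 15.5 to 142 ± 17.7 CPM, a log2 fold change of 0.75 ± 0.134 (SE; adjusted p 0.00143 by edgeR). The groups did not overlap in these 3 genes, and 0.891% of the exon bases of Nrap are shared with Habp2 on the opposite strand. N-cadherin (Cdh2) and alpha-T-catenin (Ctnna3), both part of the junction that the Xin proteins join, also rose, with log2 fold changes of 0.46 and 0.51 (edgeR adjusted p 0.0102 and 0.0120). With endothelial markers as a covariate these were 0.45 (SE 0.152, against 0.111 without) and 0.43 (SE 0.172, against 0.128) and no longer passed. Ctnnb1, the gene of beta-catenin, was at 390 ± 25.7 and 411 ± 8.72 CPM and did not pass (edgeR adjusted p 0.546).

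Of 9 partners of the sorbin adaptors, 2 were higher, none lower and 7 did not pass, also near the 18.9% called over all tested genes. Tln1, the gene of talin-1, which couples integrins to actin, rose from 150 ± 24.9 to 301 ± 26.1 CPM (SD, n = 5 each; log2 fold change 1.00, SE 0.117, edgeR adjusted p 4.63e-05). Cblb, a ubiquitin ligase gene, rose from 16.2 ± 2.58 to 25.5 ± 4.86 CPM, a log2 fold change of 0.65 ± 0.155 (SE; adjusted p 0.00902 by edgeR). With endothelial markers as a covariate it was 0.51 (SE 0.209) and did not pass. Vcl, the gene of vinculin, was at 276 ± 27.0 and 314 ± 28.1 CPM and did not pass (edgeR adjusted p 0.196).

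The labelled cell type was checked on fixed markers. The 7 cardiomyocyte markers summed to 88834 to 112239 CPM in heterozygotes and 84007 to 108512 CPM in knockouts. Of the 7, Tnni3 was lower and 6 did not pass. Markers of other cells were far lower: 8 fibroblast markers summed to 318 to 648 CPM over all samples, and 8 of smooth muscle and pericytes to 388 to 526 CPM. The latter sum holds called changes in both directions, and 5 of its tested markers did not pass. Mean Smtn fell from 268 to 187 CPM and mean Cspg4 rose from 37.0 to 132 CPM. The 5 macrophage and leukocyte markers found in the table summed to 58.3 CPM in heterozygote 3. Of this sum Cd74 alone held 35.9 CPM, against 1.78 CPM or less in every other sample. The 5 markers summed to 10.2 to 13.2 CPM in the other heterozygotes and 6.56 to 9.75 CPM in knockouts. Of 3 tested, 1, Csf1r, was called lower, and the part of these markers in the results was not tested. Among the erythroid markers Hba-a1 and Hba-a2 were at 0 in every sample. They are near-identical copies whose reads the counter's defaults can leave out, so these zeros say nothing of red cells. Alas2, the remaining erythroid marker in the table, was at 0.123 to 1.15 CPM in heterozygotes and 0.0976 to 0.625 CPM in knockouts, below the filter. All 8 endothelial markers had a negative log2 fold change, with a median of -0.42, and 1 of them, Egfl7, was called lower. With the endothelial covariate the 6 members past the threshold were the same, with log2 fold changes of 2.08 for Xirp2, 1.74 for Sorbs2, 1.72 for Sorbs3, 1.19 for Flnc, 0.61 for Xirp1 and -0.54 for Fblim1.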

How the data were processed

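The deposited values are raw read counts per gene. Per the file headers, the authors made these counts with featureCounts 1.5.1 and a UCSC annotation of mm10, with no strand option. The submitters' processing notes list STAR 2.5.3a and Subread 1.5.2, while the alignment files named in the header carry another aligner's default name. Defaults leave out reads that map to several places or overlap several genes. The 4 count columns that match no sample of the series were not used.

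Here, genes were filtered with filterByExpr (minimum count 10, minimum total 15), scaled with TMM, and compared over all 10 samples with edgeR 4.0.16 (quasi-likelihood F test, R 4.3.3, Benjamini-Hochberg adjustment over 11870 genes). SE is the log2 fold change divided by the square root of F. The log2 CPM used a prior count of 1. The procedure was tested on simulated data. P-values set the difference between the genotypes against the spread between the 5 samples of a group, estimated with help from all genes. The smallest share that 3 counts can show was 1.19e-05% to 3.71e-05% of a total, for counting error only. Replicate pairs differed by a chi-square of 10.8 to 37.5 per degree of freedom, so none agreed within sampling noise.

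The members and lists were chosen with earlier results of these data known. Named partners are the largest called rise and fall of each list, those called below 0.01, and the relatives. Some genes of the lists and families are not reported here, and counts and shares leave them out. Outside that rule, partners Filip1, Ctnna3, Cdh2, Myoz2, Asb2, Ctnnb1 and Vcl were chosen after their values were seen. So were the markers Tnni3, Csf1r, Cd74, Egfl7 and those of the closing section, and the interferon genes. Alternatives were RLE, upper-quartile and library-total scaling, 2 other filters, the replicate block, DESeq2 1.42.0, limma's voom (limma 3.58.1), leaving out each animal and, added after seeing the data, an exon length offset over 20 bins and an endothelial marker covariate.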

Additional observations from a re-analysis of the deposited data

Results flagged for a closer look

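The 5 animals of a genotype were compared in 50 sets of values, which were totals, named genes and family shares. In 3 of them the highest or lowest animal lay further from its neighbour than 0.71 of the whole range. Chance gives about 1 in 20 such sets. None of the 3 was one of the 8 genes described. Total counts were 25237696 in heterozygote 1 against 10309615 in the next deepest heterozygote, and the 6 members past the threshold were the same without that animal. Bag3 was at 8.07 log2 CPM in heterozygote 3, against 7.74 or less in the other heterozygotes, and its log2 fold change was 0.51 without that animal. Tjp1 was at 5.85 log2 CPM in heterozygote 2, against 6.42 or more in the others, and its log2 fold change was 0.65 without that animal. No cause was tested for these values.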

How the results depend on the processing

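Calls over all genes numbered 1699 to 2258 when 1 animal was left out, members past the threshold 6 to 7, and partner genes called 13 to 15. The replicate block gave 2182 calls, 6 members and 13 partners (Stub1 lost its call). Whether the numbers of the labels pair the samples was not tested, and the values were mixed. Above 0.1 were the correlations of 3 of 5 same-number pairs (range -0.06 to 0.19), and 2 of 5 heterozygotes correlated best with their own number. With the endothelial covariate there were 1136 calls and 7 partner genes, and Filip1, Bag3, Sqstm1, Stub1, Cdh2, Ctnna3 and Cblb no longer passed, at log2 fold changes of 0.27, 0.39, 0.32, -0.49, 0.45, 0.43 and 0.51. For Flna the log2 fold change reversed to -0.16 with the exon length offset, and ran from -0.06 to 0.17 over the fits without 1 animal, at -0.01, -0.06, -0.01 and -0.04 without heterozygote 1, heterozygote 5, knockout 4 and knockout 5. Raw counts not divided by length gave shares of 15.3% and 33.2% for Xirp2, 24.6% and 10.4% for Synpo2, and 95.8% and 96.7% for Sorbs2, in heterozygotes and knockouts. Stub1 also lost its call with library totals alone and with the exon length offset, at log2 fold changes of -0.32 and -0.27. Scaling by library totals alone gave 17 partner genes called, all higher. Of the other comparisons of a named gene with a setting, 190 outside the fits without 1 animal and 187 within them kept direction and call. The cause of these changes was not tested. Among the members, Sorbs3 had the fewest counts, 121 to 856 per sample.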

Other observations

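Among the markers of smooth muscle and pericytes, Cspg4 (the gene of the proteoglycan NG2) rose from 37.0 ± 6.39 to 132 ± 21.3 CPM (SD, n = 5 each; log2 fold change 1.84, edgeR adjusted p 1.23e-06). Of the other tested markers of the list, 5 did not pass. Pdgfrb was at 60.3 ± 11.3 and 48.3 ± 17 CPM, Rgs5 at 54.2 ± 25.7 and 42.5 ± 12.9 CPM and Kcnj8 at 24.9 ± 7.26 and 18.5 ± 6.71 CPM. Myh11 was at 18 ± 8.00 and 11.4 ± 4.91 CPM, and Cnn1 at 1.63 ± 0.670 and 3.45 ± 1.91 CPM (log2 fold change 1.05, edgeR adjusted p 0.0806). Smtn, the gene of smoothelin, fell from 268 ± 51.0 to 187 ± 17.5 CPM (log2 fold change -0.52, edgeR adjusted p 0.00902). These markers were singled out after their values were seen, and no difference between Cspg4 and the other markers was tested.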
